A study of Homo sapiens with 6 samples.

Results

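The mRNAs of the cytoplasmic ribosomal proteins were examined in native RNA immunoprecipitation and sequencing (RIP-seq) of ORC1, the largest subunit of the origin recognition complex, which marks the sites where DNA replication starts. Members were the genes whose symbol begins with RPL or RPS followed by a digit, together with RPLP0, RPLP1, RPLP2 and RPSA, while RPS6 kinases, numbered pseudogenes, antisense genes and Y-linked RPS4 copies were left out. This gave 83 of the 23013 genes in the table, 52 of the large and 31 of the small ribosomal subunit. Of these, 76 encode standard ribosomal proteins. The other 7 were the paralogues RPL3L, RPL7L1, RPL22L1, RPL26L1, RPL36AL and RPS27L, and RPL27AP, which the symbol rule takes in but which is named as a pseudogene. A gene was tested where its normalised counts averaged 10 or more across the 6 libraries. All 83 members met this, among 16513 genes in all.

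The libraries came from nuclear lysate of asynchronous HCT116 cells without treatment, an established line of human colorectal carcinoma. In 3 of them, ORC1 had been pulled down with an antibody from the Stillman laboratory (ORC1 IP), and in the other 3 no antibody had been used (input). The question put to the data was which nuclear RNAs came down with ORC1, and the comparison here was how far ribosomal protein mRNAs did so relative to input. No library from a control antibody was analysed here, so background recovery per gene is unknown. The paper reports that RNA brought down with a control IgG was below detection.

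A human ribosome is built from ribosomal RNA and one copy of nearly every ribosomal protein, and the small subunit reads the mRNA while the large subunit forms the peptide bonds. Ribosomal protein mRNAs are short, among the most abundant mRNAs of dividing cells, and mostly cytoplasmic once spliced and exported. Most begin with a 5′ terminal oligopyrimidine (TOP) tract, through which LARP1 and mTOR signalling control their translation.

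Recovered reads on genes numbered 13703033 to 17248924 in the inputs and 25134156 to 36008733 in the ORC1 IPs. Normalised counts are reads divided by 1 size factor per library, so every value is relative to the other RNAs of its library. A lower value in the ORC1 IP is therefore a smaller part of that library, and in a bulk lysate fewer cells with an RNA and less RNA per cell cannot be told apart. Of 7 epithelial marker genes, 6 were measured well above the filter in this line, and VIL1 was near 0 with a mean of 2.11. Of 7 markers of other cell types, ALB had a mean of 1.76, COL1A1 lay between 161 and 787, and 5 were not in the table. ORC1 IP replicate 2 stood apart in lists of both kinds. Its summed level of 7 nuclear-retained RNAs was 129483, against 15510 to 41791 in the other 5 libraries. MALAT1 alone was 116695 of this sum. NEAT1, CCNL1, CCNL2 and MLXIPL were also highest in ORC1 IP 2, while KCNQ1OT1 at 194 and SNHG14 at 4.64 were not. The summed epithelial markers of ORC1 IP 2 were 17299, against 49068 to 146127 in the other libraries. The part of this library's makeup in the results below was not tested, and calls that limma changed without it are given beside the results.

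Most annotated start sites of the members held a TOP-like run. In RefSeq, 67 of the 83 members had an annotated start with sequence. A pyrimidine run spelled CTTTC or CTTTT or CTTCC or CTTCT was searched from 5 bases before to 15 bases after the start, on both strands, and the runs may overlap each other. On the gene's own strand it was present in 53 members (79.1%), compared with 16.9% of the 9837 tested genes with such an entry. On the other strand it was present in 1 member (1.49%), against 12.1% of tested genes. The 30 bases around the start are shown for members at both ends of the fold changes below, RPS29 being one without a match, with each match in capitals (RefSeq, GRCh38.p14, read along the gene).
RPS29, chr14:49598696-49598725, - strand: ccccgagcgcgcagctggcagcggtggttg
RPL35A, chr3:197950175-197950204, + strand: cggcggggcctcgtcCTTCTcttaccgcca
RPLP0, chr12:120201097-120201126, - strand: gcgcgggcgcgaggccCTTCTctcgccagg
RPS21, chr20:62387088-62387117, + strand: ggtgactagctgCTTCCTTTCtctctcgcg
RPL39, chrX:119791616-119791645, - strand: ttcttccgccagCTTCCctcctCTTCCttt
RPS24, chr10:78033848-78033877, + strand: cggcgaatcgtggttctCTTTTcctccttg
RPL14, chr3:40457324-40457353, + strand: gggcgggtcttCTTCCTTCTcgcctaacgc
RPS25, chr11:119018329-119018358, - strand: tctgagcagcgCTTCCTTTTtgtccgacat
RPL6, near the upper end, had no match at either of its annotated starts. A match describes the letters in this window and does not show that a transcript starts there in these cells.

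Taken as a whole, ribosomal protein mRNAs made up 2.43%, 2.61% and 3.28% of gene reads in input replicates 1, 2 and 3, and 1.85%, 2.87% and 1.07% in the ORC1 IPs. The means were 2.77% ± 0.451 for input and 1.93% ± 0.904 for ORC1 IP (SD, n = 3 each). ORC1 IPs 1 and 3 lay below every input, whereas ORC1 IP 2 lay between inputs 2 and 3, so the groups overlapped. The large subunit took 1.57% to 2.08% of input reads and 0.715% to 1.86% of IP reads. The small subunit took 0.853% to 1.21% and 0.350% to 1.01%. Reads on large subunit mRNAs exceeded those on small subunit mRNAs by a factor of 1.85, 1.72 and 1.72 in the inputs and of 2.48, 1.85 and 2.04 in the ORC1 IPs. ORC1 IP 2 thus stood at the level of input 1, and the other IPs above all inputs.

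**Figure D1:**
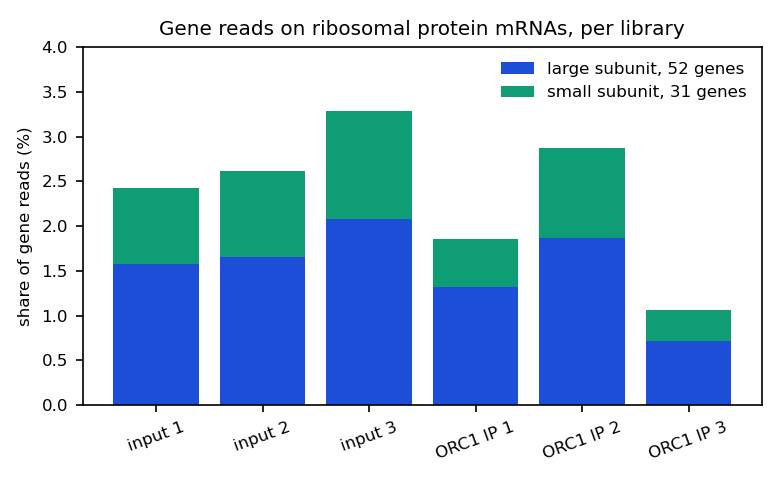
Share of gene reads (%, vertical axis) that fell on ribosomal protein mRNAs in each of the 6 libraries, split into the 52 large subunit genes (blue) and the 31 small subunit genes (green). ORC1 IPs 1 and 3, at 1.85% and 1.07%, lie below all inputs, and ORC1 IP 2, at 2.87%, lies among them.

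Gene by gene, 66 of the 83 members had a negative log2 fold change of ORC1 IP over input. The median was -0.71, compared with 0.01 over all tested genes, and the quartiles of the members were -1.29 and -0.15. Large subunit mRNAs had a median of -0.56 (41 of 52 negative) and small subunit mRNAs one of -1.08 (25 of 31 negative). The difference between the subunits was not tested. In 33 members (39.8%), all 3 ORC1 IPs lay below all 3 inputs, a pattern that 13.5% of all tested genes showed. The opposite pattern was found in 4 members, among them RPS24, RPL5 and RPL7, and in 12.7% of all tested genes.

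After adjustment over all tested genes, 2 members were called lower in the ORC1 IP (limma, Benjamini-Hochberg, adjusted p under 0.05), RPS29 and RPL35A, which is 2.41% of the members and compares with 1.42% of all tested genes. None was called higher, against 2.28% of all tested genes. At an unadjusted p under 0.05 the same fit gave 29 members lower and 1 higher, RPS24, with 9.45% of all tested genes lower and 12.2% higher. On recovered reads, edgeR called the same 2 members lower and none higher, against 1.36% and 2.57% of all tested genes. DESeq2 called 20 members lower, against a background of 4.12%, and 2 higher, RPS24 and RPL5, against 7.74%. Without ORC1 IP replicate 2, limma called 32 members lower, against 6.38% of all tested genes, and the same 2 higher, against 11.9%. With other libraries left out there were few calls among all genes. Without input replicate 3 limma called no member, with 0.139% of all tested genes lower and 0.0363% higher, and without ORC1 IP replicate 3 none, with 0.139% and 0.145%. Without input replicate 2 it called RPS29 alone, with 0.236% of all tested genes lower and 0.291% higher, and without ORC1 IP replicate 1 again RPS29 alone, with 0.721% and 1.19%. The methods describe the ORC1 libraries as triplicate experiments without saying whether these were separate cultures, so p-values measure the spread between these libraries, which may be technical.

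**Figure D2:**
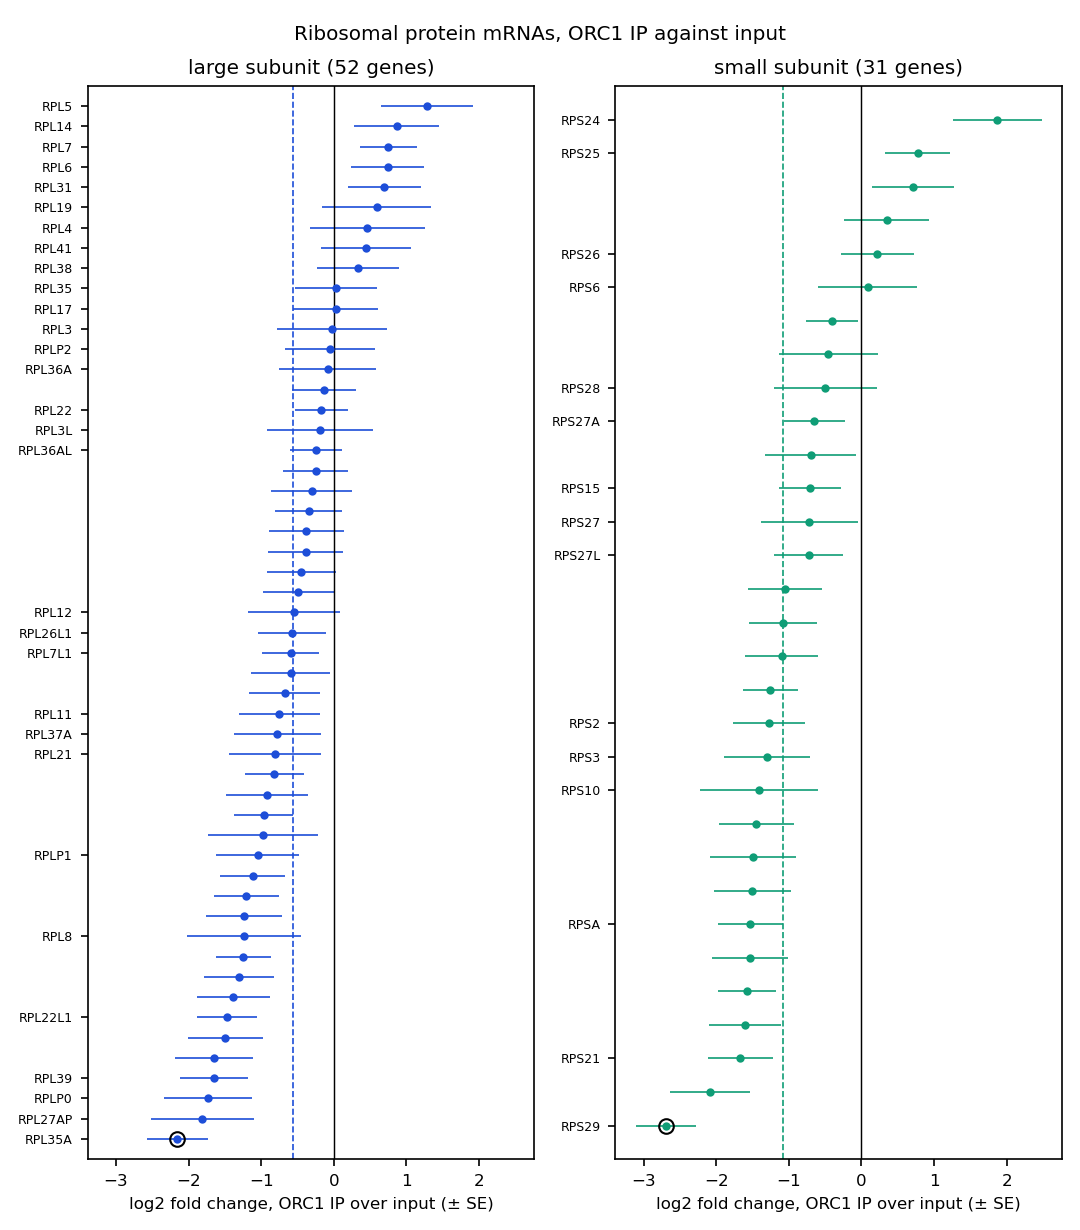
Log2 fold change of ORC1 IP over input (horizontal axis, ± SE from limma, 3 libraries against 3) for each of the 52 large subunit genes (left) and 31 small subunit genes (right), ordered by fold change, with gene symbols at members named in the text. Circled points mark RPL35A and RPS29, the members past an adjusted p of 0.05, and dashed lines mark the subunit medians of -0.56 and -1.08.

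Among proteins of the small subunit, RPS29 (ENSG00000213741, GENCODE v44 on GRCh38, chr14:49570984-49599164, - strand) is a zinc-binding protein of the subunit head, and its coding sequence of 168 nt is among the shortest. Its normalised counts were 2406, 2652 and 3939 in inputs 1 to 3 and 386, 777 and 306 in ORC1 IPs 1 to 3. Every IP thus lay far below every input. The log2 fold change was -2.70 ± 0.42 (SE), with an adjusted p of 0.00902 (limma), and over all alternatives it stayed between -3.09 and -2.13 with adjusted p from 3.7e-06 to 0.0736. Of its 50-base coding stretches, 58.0% also occur in transcripts of other genes. LRR1 overlaps it on the opposite strand.

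RPS21 (chr20:62387103-62388520, + strand), a small protein of the subunit, had 4549, 4578 and 5968 normalised counts in the inputs and 1071, 2824 and 1283 in the IPs. ORC1 IP 2 was the highest of its group, and the fold change was -1.67 ± 0.45 (adjusted p = 0.0596, limma). It was called lower once ORC1 IP 2 was left out, at -2.09 with an adjusted p of 0.00139 (limma). RPS2 and RPS3, at the mRNA entry, both lay below input in all 3 IPs, with fold changes of -1.27 ± 0.50 and -1.30 ± 0.60 (limma, adjusted p = 0.158 and 0.229). Both were called lower without ORC1 IP 2, at limma's adjusted p of 0.00616 and 0.0378.

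The other end of the small subunit was held by RPS24 (ENSG00000138326, chr10:78033760-78056813, + strand), which is needed for maturation of the 18S ribosomal RNA. It had 7044, 3945 and 6055 normalised counts in the inputs and 32064, 20715 and 12431 in the ORC1 IPs. Every IP exceeded every input, and the IP mean was 3.83 times the input mean. The log2 fold change was 1.87 ± 0.61, with an unadjusted p of 0.00942 and an adjusted p of 0.102 (limma), and an adjusted p of 0.00109 in DESeq2. Leaving out ORC1 IP 2, limma called it higher at 1.85 (adjusted p = 0.0121). RPS25, needed for initiation at several viral internal ribosome entry sites, had 2072 to 2627 in the inputs and 5724, 4729 and 2337 in the IPs. The third IP lay inside the input range, and the fold change was 0.77 ± 0.44 (adjusted p = 0.339, limma).

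In the large subunit, RPL35A (ENSG00000182899, chr3:197950190-197956610, + strand), required for maturation of the large subunit, had 6452, 6389 and 9053 normalised counts in the inputs and 1328, 2063 and 1550 in the ORC1 IPs. The groups were far apart, with an input mean 4.43 times the IP mean. The log2 fold change was -2.15 ± 0.42 with an adjusted p of 0.0201 (limma), and adjusted p ran from 7.49e-06 to 0.176 over the alternatives. In edgeR with the replicate number as a block, RPL35A was no longer called. Only 1.07% of its 50-base coding stretches occur in other transcripts. RPL39, a very small protein that lines the peptide exit tunnel, had 1237, 1202 and 1686 in the inputs and 546, 765 and 194 in the IPs. Its fold change was -1.65 ± 0.47 (adjusted p = 0.0691, limma), and without ORC1 IP 2 it was called lower (adjusted p = 0.00466). All of its coding stretches are shared with other genes.

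The 5S ribonucleoprotein, in which RPL5 and RPL11 join the 5S ribosomal RNA before it enters the large subunit and which can inhibit MDM2, had members on both sides. RPL5 (ENSG00000122406, chr1:92832013-92841924, + strand) had 9661, 8651 and 8241 normalised counts in the inputs and 34496, 17527 and 16464 in the ORC1 IPs. RPL11 (chr1:23691742-23696835, + strand) had 11490, 11483 and 16024 in the inputs and 9272, 7804 and 6141 in the IPs. In neither gene did the groups overlap, RPL5 being higher and RPL11 lower in the IPs. The log2 fold changes were 1.28 ± 0.64 for RPL5 and -0.75 ± 0.55 for RPL11, neither past the threshold in limma (adjusted p = 0.268 and 0.466). RPL5 was called higher without ORC1 IP 2, at 1.43 (adjusted p = 0.0284, limma). DIPK1A overlaps RPL5 on the opposite strand, and RPL5 holds 2 small nucleolar RNA (snoRNA) genes in its introns.

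**Figure D3:**
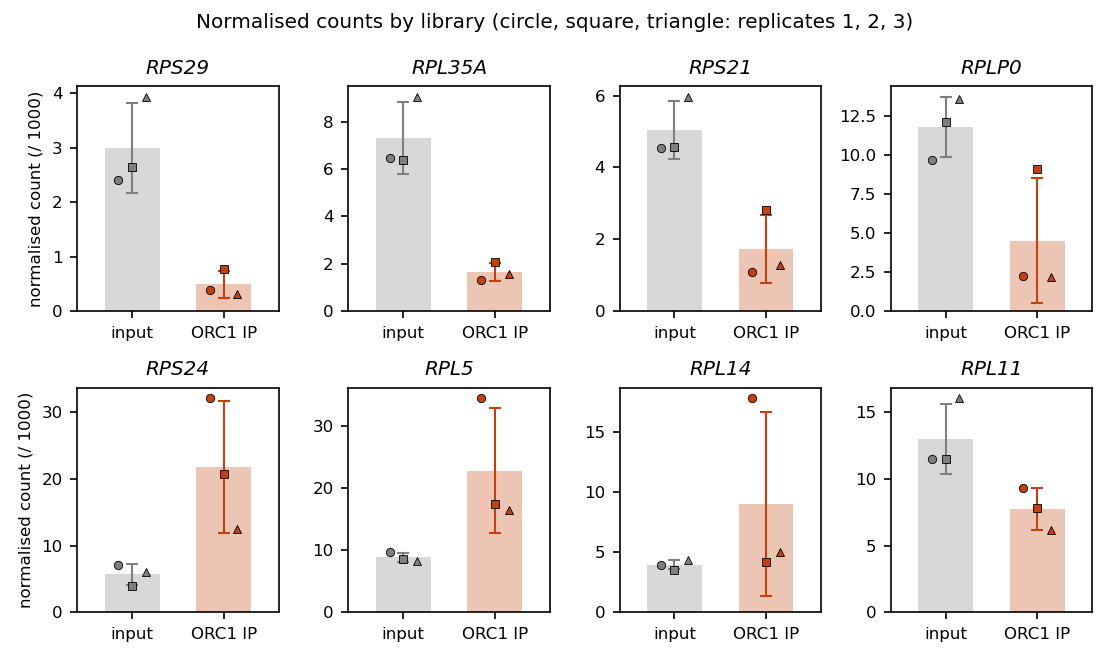
Normalised counts (in units of 1000, vertical axis) of 8 members in input (grey) and ORC1 IP (orange). Bars are means, error bars are the SD of 3 libraries, and symbols are the single libraries. In RPS29, RPL35A, RPLP0, RPS21 and RPL11 every IP lies below every input, in RPS24 and RPL5 every IP lies above, and in RPL14 the high mean comes from ORC1 IP 1 at 17775.

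The stalk proteins, which recruit translation factors to the large subunit, had 4 mRNAs with negative fold changes, but their IP libraries disagreed. RPLP0, the stalk base, had 9705, 12110 and 13561 normalised counts in the inputs and 2220, 9116 and 2153 in the IPs. RPLP1 had 4339 to 6976 in the inputs and 2339, 6248 and 1199 in the IPs, and RPL12 had 2087 to 2805 and 1345, 5671 and 645. In each of these 3, ORC1 IP 2 was several times the other IPs and, for RPLP1 and RPL12, inside or above the input range. Their fold changes were -1.73 ± 0.61, -1.05 ± 0.57 and -0.55 ± 0.63, none past the threshold (limma, adjusted p = 0.123, 0.315 and 0.667). Without ORC1 IP 2 limma called all 3 lower, at -2.42, -1.68 and -1.41. These are 75% of the 4 stalk mRNAs, against 38.6% of all members and 6.38% of all tested genes. RPLP2, the partner of RPLP1, had 9409 to 12706 in the inputs and 15786, 12435 and 5174 in the IPs, with a fold change of -0.05 ± 0.62 that changed sign between alternatives.

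Several of the large subunit mRNAs were far higher in ORC1 IP 1 than in the other libraries. RPL14 had 3557 to 4353 normalised counts in the inputs and 17775, 4165 and 5022 in the IPs. RPL6 had 2054 to 2701 in the inputs and 8697, 2496 and 2840 in the IPs. In both, the second IP lay inside the input range and the third slightly above it, with fold changes of 0.87 ± 0.58 and 0.75 ± 0.50 (limma, adjusted p = 0.417 and 0.422). RPL4 and RPL19, which had the highest IP means of all members, were also highest in ORC1 IP 1. RPL4 had 17088 to 21804 in the inputs and 50710, 18409 and 21016 in the IPs, and RPL19 had 13030 to 18342 and 45642, 19022 and 13486. For RPL4, ORC1 IPs 2 and 3 lay inside the input range, while for RPL19 ORC1 IP 2 lay slightly above it. RPL3, at the peptidyl transferase centre, had 16899 to 24863 and 35711, 12520 and 19706, with a fold change of -0.02 ± 0.76. RPS6, the ribosomal target of S6 kinase, had 14759 to 18092 and 26428, 14030 and 13568, with a fold change of 0.09 ± 0.68.

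RPL8, which had the highest mean of all members, went the other way. It had 28508, 46487 and 44583 normalised counts in the inputs and 19380, 15372 and 15172 in the IPs, which did not overlap. The fold change was -1.24 ± 0.79 (adjusted p = 0.391, limma), and DESeq2 gave an adjusted p of 0.0167. RPL7 had 303 to 397 in the inputs and 982, 432 and 465 in the IPs, a fold change of 0.75 ± 0.39 (adjusted p = 0.286, limma) at a low level.

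By replicate, the departure from input differed in size. The median log2 ratio of an ORC1 IP to the input with the same number was -0.09, -0.48 and -1.55 in replicates 1, 2 and 3, against -0.01, 0.01 and 0.05 over all tested genes. The corresponding medians were -0.01, -0.34 and -1.48 for the large subunit and -0.41, -0.70 and -2.02 for the small subunit. Of the 83 members, 45, 55 and 76 were negative in replicates 1, 2 and 3, and 36 were negative in all 3. In 5 members the ratio was positive in all 3 replicates. Of the 16513 tested genes, 8282, 8209 and 7916 were negative in replicates 1, 2 and 3. Among those tested genes, 3176 were negative in all 3 replicates and 3271 positive in all 3. Across the 83 members, ratios of replicates 1 and 3 had a Spearman rho of 0.63, those of replicates 1 and 2 one of 0.42, and those of replicates 2 and 3 one of 0.44. These describe genes that share libraries, and they rest on the pairing of libraries by number.

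**Figure D4:**
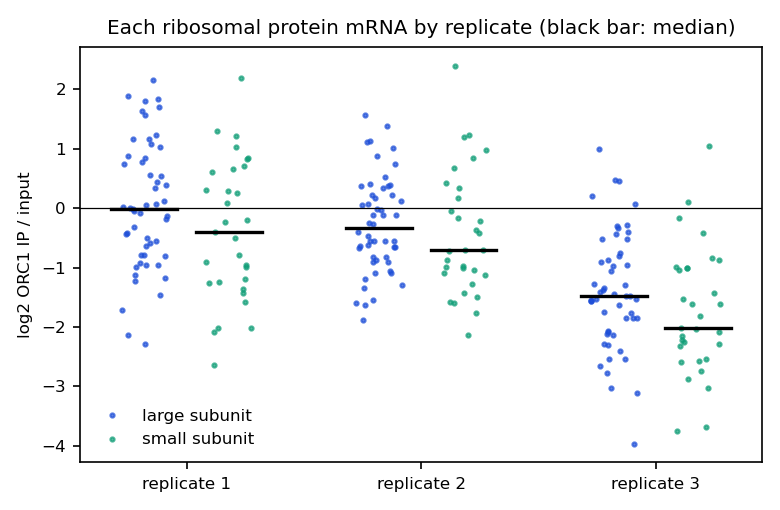
Log2 ratio of ORC1 IP to the same-numbered input (vertical axis) for each ribosomal protein mRNA in replicates 1, 2 and 3, with large subunit genes in blue and small subunit genes in green. Black bars are medians, which move from -0.01 and -0.41 in replicate 1 to -1.48 and -2.02 in replicate 3.

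Groups defined by position or disease were read from the same fit. Of the 8 measured proteins around the exit tunnel, 4 had negative fold changes, with a median of -0.06 and RPL39 and RPL31 at the ends (-1.65 and 0.70). Of the 4 at the mRNA exit, 3 were negative, with a median of -1.02. Without ORC1 IP 2, limma called 2 of them lower (50%, against 6.38% of all tested genes). Of 18 measured genes mutated in Diamond-Blackfan anaemia, a failure of red cell production, 13 were negative with a median of -0.73. Both called members, RPS29 and RPL35A, and both members that DESeq2 called higher, RPS24 and RPL5, belong to this list. The 2 limma calls are 11.1% of the list, against 2.41% of all members and 1.42% of all tested genes. DESeq2 called 6 of the list lower (33.3%) and 2 higher (11.1%), against 24.1% and 2.41% of all members. Its shares of all tested genes were 4.12% lower and 7.74% higher. With ORC1 IP 2 left out, limma called 7 of the list lower (38.9%) and 2 higher (11.1%), against 6.38% and 11.9% of all tested genes. Over all 83 members those shares were 38.6% and 2.41%. Among the 7 members outside the standard lists, all fold changes were negative, from -1.81 for RPL27AP to -0.19 for RPL3L. RPL22L1, the paralogue of RPL22, had 2522 to 4148 normalised counts in the inputs and 1089, 1726 and 780 in the IPs, a fold change of -1.47 ± 0.41 (adjusted p = 0.0645, limma), whereas RPL22 itself had one of -0.17 ± 0.36. Without ORC1 IP 2, RPL22L1 and RPL27AP were called lower (limma, adjusted p = 0.00393 and 0.0217). RPS27L, RPL7L1, RPL26L1 and RPL36AL lay between -0.73 and -0.24, and RPL3L, a muscle paralogue, stayed below 30 normalised counts in every library.

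Ribosomal proteins under other symbols and genes that work with them were compared through the same test. FAU, which encodes RPS30, had 4617, 8224 and 8687 normalised counts in the inputs and 3416, 1893 and 1959 in the IPs, with a fold change of -1.57 ± 0.47 (adjusted p = 0.079, limma). FAU was called lower without ORC1 IP 2, at -1.42 (adjusted p = 0.0247, limma). RACK1 (GNB2L1 in the table) had a fold change of -0.80 ± 0.76. None of 20 further TOP mRNAs, translation factors and others, was called by limma or edgeR. Of all tested genes, limma called 1.42% lower and 2.28% higher, and edgeR 1.36% and 2.57%. At limma's unadjusted p under 0.05, 2 of the 20 were lower (10%) and 1 higher, and DESeq2 called 3 of them higher (15%). Of all tested genes, 9.45% were lower and 12.2% higher at that unadjusted p. DESeq2 called 4.12% of all tested genes lower and 7.74% higher. The 20 TOP mRNAs had a median of -0.04, from -1.10 in EIF3K to 2.01 in NAP1L1. Without ORC1 IP 2 limma called 6 of the 20 higher (30%, against 11.9% of all tested genes) and none lower, and the median was 0.32. Of 44 ribosome biogenesis factors, limma and edgeR called none. Against the same shares of all tested genes, 2 of these factors were lower (4.55%) and 4 higher at limma's unadjusted p under 0.05. DESeq2 called 2 of the factors lower (4.55%) and 7 higher (15.9%). Their median was 0.36, from -1.52 in EIF6 to 1.71 in NCL, the nucleolar protein nucleolin. Without ORC1 IP 2 limma called 16 of the 44 higher (36.4%, against 11.9%) and 1, EIF6, lower, with a median of 0.89. Without ORC1 IP 1 it called none, against 0.721% of all tested genes lower and 1.19% higher, and the median of the factors turned to -0.12. Of 6 dedicated chaperones of ribosomal proteins, limma and edgeR called none, 1 was higher at an unadjusted p under 0.05 and in DESeq2, and the median was -0.65, from -0.98 in GRWD1 to 1.42 in BCCIP, which was also called higher without ORC1 IP 2.

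Length and sequence were set beside the fold changes. Members were short, with a median coding length of 455 nt (GENCODE v44) against 1425 nt in tested genes. Over 12537 tested genes, coding length and log2 fold change had a Spearman rho of 0.50. Among 82 members, whose coding lengths run only from 75 to 1281 nt, the rho was 0.14. Genes are not independent replicates and share these 6 libraries. After each library was corrected for transcript length and GC content, the median of the members was -0.54, and RPS29 and RPL35A were still the 2 called. This correction used the annotated transcript length, whose rho with fold change was 0.35 over 16062 tested genes. A correction for coding length was not run, so the part of length in these fold changes was not tested.

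Tandem GAA repeats, which the study examined in RNAs recovered with ORC1, were searched in coding sequences as GAAGAAGAA on the coding strand. They were present in 8 of 82 members (9.76%) and in 12.4% of tested genes with a coding sequence. In every one of the 8 there were 3 repeats, out of frame with the GAA codon. These 4 show the setting, with the repeat in capitals and 10 bases on either side in the spliced coding sequence (GENCODE v44, coordinates of the repeat on GRCh38).
RPL6, exon 6, chr12:112405905-112405913, - strand: cttacttcaaGAAGAAGAAgctgcggaag
RPS25, exon 2, chr11:119018028-119018036, - strand: aggacgacaaGAAGAAGAAggacgctgga
RPL35, exon 2, chr9:124861518-124861526, - strand: atcttcgcggGAAGAAGAAggaggagctg
RPS27A, exon 5, chr2:55234881-55234889, + strand: ctaagaaaagGAAGAAGAAgtcttacacc
The 8 members with the repeat had a median log2 fold change of -0.07, from -0.71 in RPS15 to 0.77 in RPS25, and the 74 without it one of -0.76. Over all tested genes the medians were 0.70 with and -0.05 without the repeat. Longer coding sequences have more room for a repeat, and these medians were not tested.

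Many ribosomal protein genes have processed copies elsewhere in the genome, which bears on the counts themselves. In 17 members more than 85% of the 50-base coding stretches also occur in transcripts of other genes, and their mean normalised counts had a median of 405, against 5741 in the other 66. RPS10, RPS27, RPS28, RPL21, RPL36A, RPS26, RPL17, RPL41 and RPL39, standard ribosomal proteins, had all their stretches shared and means of 97.3 to 938. The counting of reads with matches in more than 1 gene is not described in the sources at hand, so the levels of these members are uncertain. Over the 44 members that share under 50%, the median log2 fold change was -0.76. RPL35A was their single call in limma (2.27% lower, against 1.42% of all tested genes). With ORC1 IP 2 left out, limma called 19 lower (43.2%) and 2 higher (4.55%), against 6.38% and 11.9% of all tested genes. In addition, 33 members overlap a gene of the table on the opposite strand, and whether counting used the strand is not described either.

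**Figure D5:**
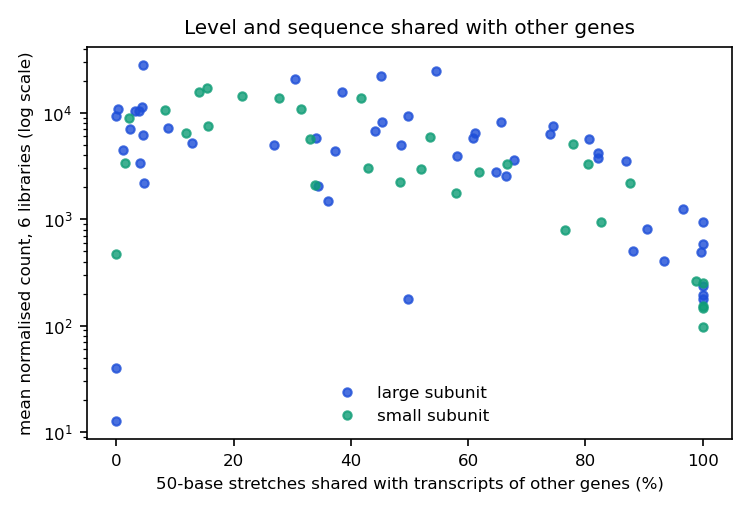
Mean normalised count over 6 libraries (vertical axis, log scale) against the percentage of 50-base coding stretches that occur in transcripts of other genes (horizontal axis), for large (blue) and small (green) subunit genes. Members at or near 100% shared lie low, mostly under 1000, although their proteins are standard parts of the ribosome.

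Per kb of coding sequence, which leaves out untranslated regions and so overstates genes with long ones, RPL8 and RPL37A had the highest input levels, 51698 and 51591 normalised counts per kb, and RPL38 had 37504. In the ORC1 IP the order was headed by RPS24 at 55736 and RPL38 at 50499, whose input levels were 14568 and 37504. RPS24 thus moved past RPL8, which had an IP level of 21584 normalised counts per kb.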

How the data were processed

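RIP-seq of nuclear RNA was analysed in 3 input and 3 ORC1 IP libraries, grouped by the labels. The authors used Trimmomatic for trimming, STAR for alignment to hg19 (GRCh37), featureCounts for counts per gene and DESeq2 for the comparison with input. The deposited signal per library is gene counts divided by 1 size factor, and whole reads came back for 100% of values (tolerance 0.001). The authors' deposited table also holds their log2 fold changes with standard errors, a test score and p-values, none of which was used. The members and lists were chosen with earlier results of these data known. Log2(normalised count + 1) of genes with a mean of at least 10 was tested with limma 3.58.1 (moderated test with intensity trend, R 4.3.3, no block), with Benjamini-Hochberg adjustment at 0.05. This scale understates changes of low genes. On recovered reads, edgeR 4.0.16 (quasi-likelihood) and DESeq2 1.42.0 were run as alternatives. The limma and edgeR fits without a block were run on simulated counts with known changes, and the DESeq2 fit was not. The simulated spread was the same for every gene and was not taken from these libraries. Alternatives changed the pseudocount, filter, scaling, test, replicate block, length and GC correction, members and libraries.

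Named were members past the threshold, the 6 lowest and 6 highest fold changes among standard members, the 6 highest means, the stalk, the 5S particle, members outside the standard lists, and FAU and RACK1, and of the other lists the lowest and highest gene. Other genes named, such as RPS2, RPS3, RPL22, RPL31 and RPL38, were chosen after their values were seen. Some genes that this rule takes in are not reported here. Labels give an input and an IP the same RIP replicate number. Across genes, the deviation of an input from the input mean and that of its IP from the IP mean correlated at -0.322, -0.240 and 0.215, so per-replicate ratios are given with reserve. Gene structure came from GENCODE v44 and starts from RefSeq, both on GRCh38, matched by identifier or symbol. Levels between genes are per kb of coding sequence, where per kb of transcript had been planned, because some annotated transcripts end in long untranslated regions. Coordinates are GRCh38, not those of the counting.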

Additional observations from a re-analysis of the deposited data

How the results depend on the processing

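The median log2 fold change of the members was negative in every alternative, from -0.93 without ORC1 IP 2 to -0.42 without ORC1 IP 3. The large subunit ran from -0.78 to -0.19 and the small subunit from -1.30 to -0.67. The share of reads in the members was lower in ORC1 IP than in input by 0.847 percentage points, and leaving out 1 library gave differences of -1.32 to -0.416. Counts of calls moved more than the medians. From 2 members called lower, leaving out 1 library gave 0 to 32 lower and 0 to 2 higher. The 32 lower and 2 higher came without ORC1 IP 2, where 6.38% of all tested genes were lower and 11.9% higher. No member was called without input replicate 3 or ORC1 IP 3, where 0.139% of all tested genes were lower. DESeq2 gave 20 lower and 2 higher, against 4.12% and 7.74% of all tested genes. Upper quartile scaling gave 4 lower, and its share of all tested genes was not counted. Members sharing under 50% of their sequence, an alternative chosen after seeing the data, gave 1 lower by having fewer genes. With the replicate block, limma called the same 2 members and edgeR 1, RPS29, so the pairing changed the call of RPL35A in edgeR. Apart from the settings named, the cause was not tested. With total count scaling, the median of all tested genes was -0.19 in place of 0.01 and that of the members -0.92. Direction changed in 5 of 31 named genes, none of them called in the main fit. RPL12, 1 of these 5, was called lower by limma without ORC1 IP 2 (adjusted p = 0.0177). RPL3 was 0.0905 in edgeR and 0.0905 in DESeq2, 0.29 after the length and GC correction, and -0.42 to 0.34 with 1 library left out. RPLP2 was 0.0811 in edgeR and 0.0811 in DESeq2, 0.60 after the correction and -0.38 to 0.43 with 1 library left out. RPL12 was 0.0291 in edgeR, 0.0289 in DESeq2 and -1.41 to 0.15 with 1 library left out. RPL3L was 0.12 in edgeR, 0.11 in DESeq2 and -0.85 to 0.41 with 1 library left out. RPS6 was -0.13 with total count scaling and -0.23 to 0.26 with 1 library left out. With 3 libraries a group, and ORC1 IPs that differ among themselves, changes below about the standard errors given could not be resolved.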

Other observations

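Introns of 28 members hold 60 annotated snoRNA genes, RNAs that guide modification of ribosomal RNA, of which 15 were in the table and 10 passed the filter. Of these 10, 9 had a negative log2 fold change of ORC1 IP over input, with a median of -1.15. None was called by limma or edgeR at an adjusted p under 0.05. Of all tested genes, limma called 1.42% lower and 2.28% higher, and edgeR 1.36% and 2.57%. At limma's unadjusted p under 0.05, 2 of the snoRNAs were lower (20%, against 9.45% of all tested genes). DESeq2 called 2 of the snoRNAs lower (20%, against 4.12%), and limma without ORC1 IP 2 called 2 lower (20%, against 6.38%). All were at low levels, for instance SNORA65 within RPL12, with 50.6, 131 and 38.6 normalised counts in the inputs and 42.6, 48.8 and 10.4 in the ORC1 IPs. The snoRNAs named were chosen after their values were seen. SNORA66, within RPL5, was the one with a positive fold change, 0.56.

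Among 106 tested pseudogenes of ribosomal proteins, 10 were called lower and 2 higher (limma, adjusted p under 0.05), and the median log2 fold change was -0.48. These are 9.43% and 1.89% of them, against 1.42% and 2.28% of all tested genes. Without ORC1 IP 2, 25 were called lower (23.6%) and 6 higher (5.66%), against 6.38% and 11.9% of all tested genes. Without ORC1 IP 3 none was called, against 0.139% of all tested genes lower and 0.145% higher. All 256 ribosomal protein pseudogenes, tested or not, took 0.217% to 0.286% of gene reads in the inputs. In ORC1 IPs 1 to 3 they took 0.209%, 0.250% and 0.106%, so ORC1 IP 3 was lowest for both the pseudogenes and the members.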
